A study of Homo sapiens with 2 samples.

Results

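The DDX and DHX genes encode the DEAD-box and DEAH-box RNA helicases, and 44 of them carried alternative splicing events in AC16 cells with or without the long non-coding RNA DCRT. They were chosen as the protein-coding genes whose symbol starts with DDX or DHX followed by a digit. The annotation holds 53 such genes outside chromosome Y, and the 44 listed members comprised 30 DDX and 14 DHX genes. They were 44 of the 7785 protein-coding genes listed, and held 695 of 78090 events, with 425 of 42783 in the DCRT knockout (DCRT-KO) and 270 of 35307 in the unedited cells (WT). AC16, an established line of human cells, carries the label cardiomyocyte. DCRT-KO cells are described as edited at DCRT with CRISPR-Cas9, and WT cells as the same line without that edit. Each genotype had 1 library, so no difference has a replicate check and no test was possible. Whether DCRT-KO is 1 clone is not given in the sources used here, and DCRT itself was not analysed here because no gene in the tables carries that symbol.

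The tables list events of 5 types, and give for every event its splice positions and the isoforms on either side. They hold no read numbers, so the depth behind an event is unknown, and the number of events of a gene mixes its expression, the depth and its splicing, which cannot be told apart. Other protein-coding genes had 41367 events in DCRT-KO and 34374 in WT, named with 52637 and 48233 isoforms of the libraries. Of 16 markers of contracting heart muscle, 2 were listed in either library, NPPB with 2 and MYL3 with 1 WT event, while TNNT2, MYH6, MYH7 and ACTN2 had none. A gene without alternative forms would have none either, so this does not measure their expression. Of 9 fibroblast and matrix markers, 7 were listed, with 16 DCRT-KO and 517 WT events. COL1A1 held 405 of the WT events. More events were listed in WT for 6 of the 7, while VIM had 15 in DCRT-KO and 12 in WT. Of 5 epithelial markers 2 were listed, with 44 and 19. The part of these markers in the results on helicases was not tested.

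DEAD-box and DEAH-box proteins use ATP to open RNA duplexes or to strip proteins from RNA. Their helicase core binds ATP through a P-loop (motif I) and hydrolyses it with the help of a motif whose letters, such as Asp-Glu-Ala-Asp, gave the family its name. Members work in splicing, ribosome assembly, mRNA export, translation and mRNA decay. An exon or intron that brings a stop codon into a transcript can send that transcript to nonsense-mediated decay, a quality control pathway.

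Segments between coding exons that the main reference transcript of the gene lacks, called cassette exons here, are shown first because they were listed in both libraries. In each printed stretch, taken from GENCODE v29 transcripts on hg38 and read 5′ to 3′ along the gene, the capitals mark the first stop codon in the frame of the exon before it. The stretch runs from the first base of the cassette to that stop.
DHX9 137-base cassette, chr1:182855577-182855619, plus strand: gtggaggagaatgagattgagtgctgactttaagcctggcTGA
DDX50 112-base cassette, chr10:68906226-68906294, plus strand: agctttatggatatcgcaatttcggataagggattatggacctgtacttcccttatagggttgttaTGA
DDX39A 185-base cassette, chr19:14410592-14410605, minus strand: gctcccctcccTGA
DDX19A 61-base cassette, chr16:70356846-70356876, plus strand: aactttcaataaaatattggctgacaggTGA
DHX34 75-base cassette, chr19:47376915-47376967, plus strand: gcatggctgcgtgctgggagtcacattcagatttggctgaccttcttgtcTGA
DDX5 87-base cassette, chr17:64501109-64501143, minus strand: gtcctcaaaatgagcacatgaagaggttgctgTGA
The DDX27 cassette differs from these in holding no stop codon in frame, and its 93 bases keep the reading frame. It is printed in full, without capitals.
DDX27 93-base cassette, chr20:49231023-49231115, plus strand: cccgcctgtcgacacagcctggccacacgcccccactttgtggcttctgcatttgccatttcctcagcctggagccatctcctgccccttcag

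A second set holds coding exons of the reference transcript that isoforms left out and that encode parts of the ATPase site. In DDX39B exon 3 the capitals mark the codons of the Gly-Lys-Thr residues of the P-loop, and in the other exons the 4 codons of the Asp-Glu box.
DDX39B exon 3, chr6:31539147-31539274, minus strand: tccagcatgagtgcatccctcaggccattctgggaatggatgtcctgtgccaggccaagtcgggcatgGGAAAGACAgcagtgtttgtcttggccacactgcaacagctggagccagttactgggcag
DDX27 exon 9, chr20:49230199-49230349, plus strand: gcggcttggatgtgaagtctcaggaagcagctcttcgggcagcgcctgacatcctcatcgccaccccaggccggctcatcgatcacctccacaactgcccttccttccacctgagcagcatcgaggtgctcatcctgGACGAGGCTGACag
DHX37 exon 8, chr12:124971302-124971415, minus strand: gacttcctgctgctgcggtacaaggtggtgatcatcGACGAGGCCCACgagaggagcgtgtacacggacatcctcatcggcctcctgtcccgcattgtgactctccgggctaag
DHX57 exon 9, chr2:38854054-38854178, minus strand: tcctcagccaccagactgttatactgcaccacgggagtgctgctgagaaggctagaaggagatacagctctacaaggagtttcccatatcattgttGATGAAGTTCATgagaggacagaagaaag

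DDX and DHX genes together held more events in DCRT-KO than in WT. The 425 DCRT-KO and 270 WT events gave a ratio of 1.57 (exact 95% interval 1.35 to 1.84), against 1.20 (1.19 to 1.22) for the other protein-coding genes. The intervals here and below cover counting error only and treat events as independent, although events of a gene share isoforms. Isoforms named in the members' events numbered 545 in DCRT-KO and 405 in WT, a ratio of 1.35 against 1.09 for the other genes. The ratio of events rested partly on 3 genes. Without DDX55, DHX35 and DHX30, left out after their values were seen, it was 1.35 (1.15 to 1.59), an interval that holds the 1.20 of the other genes. Without DDX5, the member with most events, the ratio was 1.61.

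By gene, DCRT-KO had the larger number of events in 28 of 44 members (63.6%), where the share over all protein-coding genes listed was 52.1%. A further 12 members (27.3%) held more in WT, against 37.5% of all genes, and 4 members had equal numbers, 9.09% against 10.4%. With numbers under 3 set to 3, the larger number was at least 2 times the smaller in favour of DCRT-KO in 12 members (27.3%), against 14.2% of all genes, and in favour of WT in 1 member (2.27%), against 7.35%. Scaled to the length of each list, the first count was 7 of 44 members (15.9%), against 9.25% of all genes. Counting the events with at least 2 isoforms on either side, it was 2 of the 25 members that have any, against 5.17% of such genes. The 12 unscaled members were DDX19A, DDX21, DDX39A, DDX41, DDX50, DDX52, DDX54, DDX55, DHX30, DHX34, DHX35 and DHX57, and the 1 was DDX19B. The median difference per gene was 2 events among the members and 1 among the other genes. Among the members, 5 were listed in DCRT-KO alone (11.4%, against 19.4% of all genes) and 4 in WT alone (9.09%, against 15.9%).

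**Figure D1:**
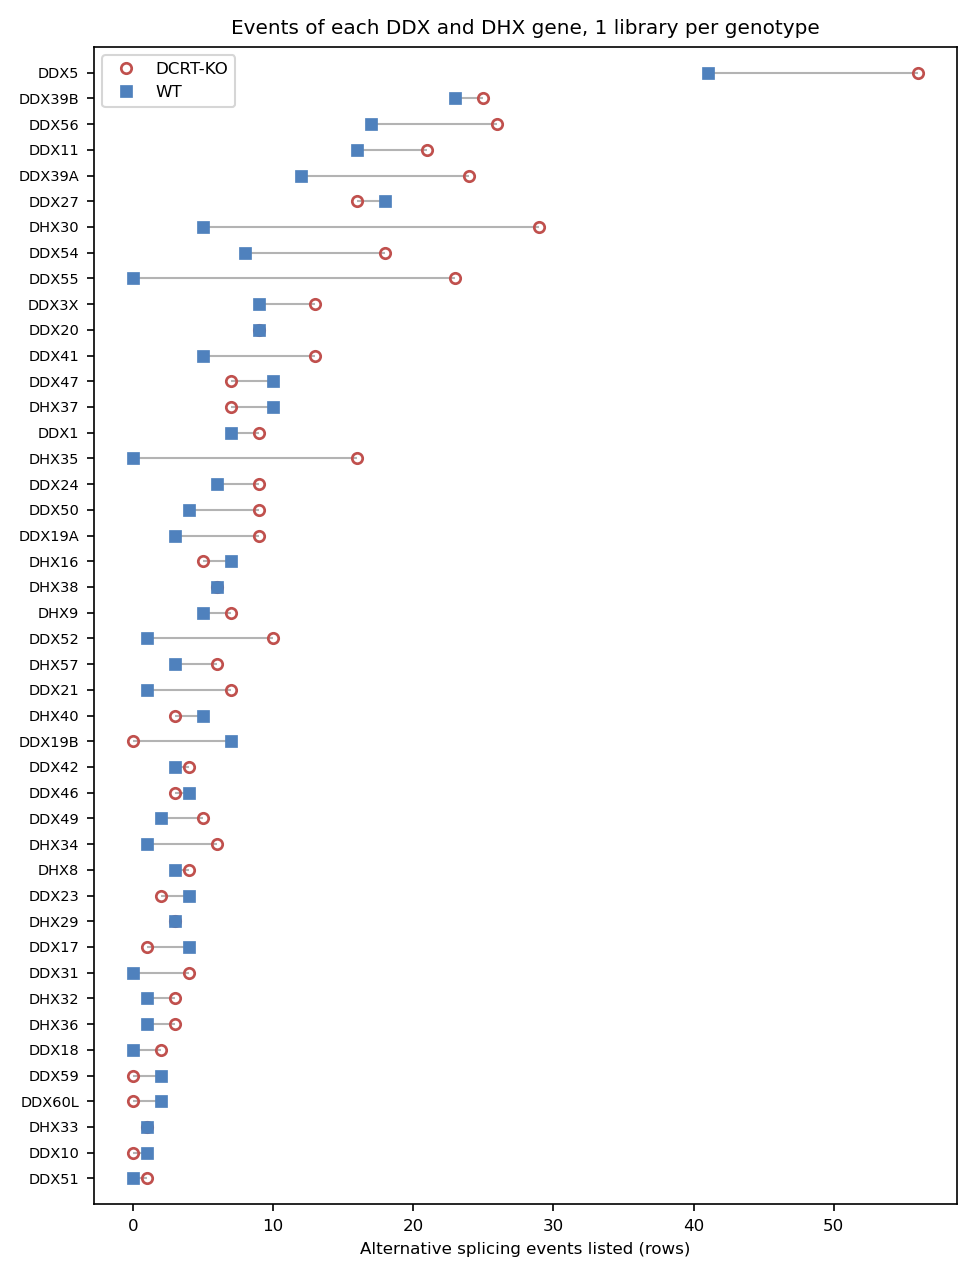
Alternative splicing events listed for each of the 44 DDX and DHX genes (x axis, number of table rows; y axis, gene, ordered by total events). Open circles are the DCRT-KO library and filled squares the WT library, 1 library each, joined by a grey line; DDX5 lies farthest right in both, and DDX55, DHX30 and DHX35 have the longest lines.

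Helicases of the spliceosome, DDX5 among them, had more events in DCRT-KO than in WT when summed. Of 13 genes on that list 12 were listed, 7 with more events in DCRT-KO, 4 with more in WT and 1 equal. Their 161 events against 113 gave a ratio of 1.42, beside 1.20 in the other protein-coding genes. No interval was computed for this ratio, and DHX35 alone held 16 of the DCRT-KO events and 0 of those in WT. The shares to set beside this list and those below were 52.1% (DCRT-KO) and 37.5% (WT) of all protein-coding genes listed. The 7 of 12 is near the first of these shares. DDX5 (ENSG00000108654, hg38 chr17:64499616-64508199, minus strand), a cofactor of transcription and splicing also known as p68, had 56 events in DCRT-KO and 41 in WT, the most of any member. It was named with 38 and 35 isoforms, so the libraries differed less in isoforms than in events. DDX39B (chr6:31530219-31542448, minus strand), known as UAP56, which acts in early spliceosome assembly and mRNA export, had 25 and 23 events and 37 and 33 isoforms. This difference of 2 events became -1 without retention of unannotated introns. DHX35 (chr20:38962299-39039723, plus strand), found in the catalytic spliceosome, had 16 events in DCRT-KO, named with 15 isoforms, and 0 events in WT. This was at least 5.33-fold more with a floor of 3 events. Isoforms are counted from events alone, so a gene with 0 events has none to count, whether or not it was expressed.

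The human counterparts of the yeast remodelling helicases differed little in number between the libraries. DHX16 (yeast Prp2) had 5 events in DCRT-KO and 7 in WT, DHX38 (Prp16) had 6 in each, and DHX8 (Prp22) had 4 and 3. DHX15, the counterpart of Prp43, which takes spent spliceosomes apart, was listed in neither library. Among the helicases of spliceosome assembly, DDX23 had 2 and 4 events, DDX42 had 4 and 3 and DDX46 had 3 and 4. DDX41, which is associated with the catalytic spliceosome, had 13 and 5, and DHX40 had 3 and 5.

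The list chosen for ribosome assembly had 16 of 16 genes listed, with 139 events in DCRT-KO and 76 in WT. More events were held in DCRT-KO by 11 of them, in WT by 4, and 1 was equal. DDX55 (chr12:123602077-123620941, plus strand), a nucleolar helicase of the large subunit pathway, had 23 events in DCRT-KO, named with 20 isoforms, and 0 events in WT. This was at least 7.67-fold more with the floor of 3. Without an event no isoform is named, so the isoforms of DDX55 in WT are unknown. No event of another gene name lay inside its span in WT, nor for the other members listed in 1 library. Its DCRT-KO events were 10 intron retentions, 7 alternative acceptors, 3 exon skips and 3 alternative donors, so they were not of a single kind. DDX56 (chr7:44565417-44575051, minus strand), of the large subunit pathway, had 26 and 17 events, and DDX54 (chr12:113157174-113185479, minus strand), a nucleolar helicase that also represses nuclear receptors, had 18 and 8.

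Other ribosome assembly members had more events listed in WT, by small numbers. DDX27 (chr20:49219295-49244077, plus strand), which acts in pre-rRNA processing, had 16 events in DCRT-KO and 18 in WT. DDX47 (chr12:12813316-12829981, plus strand), of early pre-rRNA processing, and DHX37 (chr12:124946825-124989122, minus strand), which releases the U3 small nucleolar RNA, each had 7 and 10. The direction turned for DDX27 without retention of unannotated introns, from -2 to 2 events, and for DDX47 with at least 2 isoforms on either side, from -3 to 2. DDX10, of the same list, had 0 and 1. The nucleolar DDX21 had 7 and 1 events and DDX52 had 10 and 1, while the 1 WT event of DDX52 was formed by annotated transcripts with 0 isoforms of the library. The remaining members of the list, DDX18, DDX24, DDX31, DDX49, DDX51, DHX32 and DHX33, had between 1 and 9 events in DCRT-KO and between 0 and 6 in WT.

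Export helicases form pairs of close paralogues, so the split of isoforms within a pair is uncertain. Of 5 genes on the list 4 were listed, 3 with more events in DCRT-KO and 1 with more in WT, with 58 events against 45. DDX39A (chr19:14408819-14419383, minus strand), the close relative of DDX39B that exports mRNA, had 24 DCRT-KO and 12 WT events, with 32 and 15 isoforms. DDX19B (chr16:70289663-70335283, plus strand), which remodels mRNA at the nuclear pore, had 0 events in DCRT-KO and 7 in WT. Its neighbour and paralogue DDX19A had 9 and 3, so these paralogues stood in opposite directions. How far the assignment of isoforms within the pair bears on this was not tested.

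The list chosen for translation, decay and RNA granules had 7 of 8 genes listed. Of these, 5 had more events in DCRT-KO, 1 had more in WT and 1 was equal, with 40 events against 26. DDX3X (chrX:41333284-41364472, plus strand), which helps ribosomes through structured leaders, had 13 and 9 events, and 9 and 11 isoforms. DHX34, a nonsense-mediated decay factor, had 6 and 1, DHX36, which unwinds G-quadruplexes, had 3 and 1, and DHX29, a helicase of translation initiation, had 3 in each. DDX59 was the member with more events in WT, with 0 and 2, while DDX1 had 9 and 7 and DHX57 had 6 and 3. DDX6, a core component of P-bodies, was listed in neither library.

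DHX30 (chr3:47802909-47850195, plus strand), which supports assembly and translation of mitochondrial ribosomes, differed most in number of events, with 29 in DCRT-KO and 5 in WT, 5.8-fold. Its isoforms numbered 43 and 12. Intron retention made up 14 of the DCRT-KO and 2 of the WT events, alternative acceptors 7 and 1, and exon skipping 6 and 2. DDX28, the other mitochondrial member on the list, has a single exon and no listed event.

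The transcription cofactors, 5 of 5 listed and DDX5 among them, had 82 events in DCRT-KO and 63 in WT. DHX9 (RNA helicase A) had 7 and 5 events with 18 and 29 isoforms, DDX17 (p72), the paralogue of DDX5, had 1 and 4, and DDX20 (gemin3, of the SMN complex) had 9 in each. DDX50, a nucleolar paralogue of DDX21, had 9 and 4. DDX11 (chr12:31073845-31104791, plus strand), a DNA helicase of sister chromatid cohesion with near-identical pseudogene copies that make its assignment uncertain, had 21 and 16. Of the sensors of foreign RNA, DHX58 and DDX60 were listed in neither library and DDX60L had 0 and 2 events. The list of innate immune sensing had 4 of 6 genes listed, with 23 and 13 events, 13 and 5 of them of DDX41. The germ-line helicases DDX4, DDX25, DDX43 and DDX53 were listed in neither library. Events were concentrated in a few genes, with 400 of the 695 in the 10 members with most.

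RNA helicases outside the DDX and DHX names, taken as a comparison list, had more events in DCRT-KO in sum, largely those of a few genes. Of 22 such genes 13 were listed, 7 with more events in DCRT-KO and 6 with more in WT, with 201 events against 103. The 7 of 13 is near the 52.1% of all protein-coding genes listed. Most of the events were of EIF4A2, a translation initiation helicase, with 120 and 43, and EIF4A1 had 15 and 4. SNRNP200, which unwinds U4/U6 in the spliceosome, had 16 and 4, and the cytoplasmic exosome helicase SKIC2 had 17 and 18.

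Intron retention was the most frequent event type of the DDX and DHX genes in both libraries, and made up more of their events than of other genes' events. It accounted for 183 of 425 DCRT-KO events, 43.1% (exact 95% interval 38.3 to 47.9), and for 28.6% (28.2 to 29) in the other protein-coding genes. In WT it accounted for 136 of 270, 50.4% (44.2 to 56.5), and for 35.2% (34.7 to 35.7) in the others. Exon skipping was less frequent, with 26.1% (22.0 to 30.6) against 39.6% in DCRT-KO and 23.0% (18.1 to 28.4) against 34.4% in WT. The intervals of members and other genes did not overlap for either type in either library. Without DDX5 the share of intron retention was 41.2% in DCRT-KO and 46.3% in WT. Without retention of unannotated introns, the most frequent type in DCRT-KO was exon skipping, at 31.5% against 31.25% for intron retention.

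Alternative acceptors made up 17.9% and 14.1% of the members' events and 15.8% and 15.6% of the others' in DCRT-KO and WT. Alternative donors made up 11.5% in each library, against 11.3% and 11.1%. Mutually exclusive exons were rare, with 6 events in DCRT-KO (1.41%, against 4.72%) and 3 in WT (1.11%, against 3.73%). Between the libraries, the helicases' intervals overlapped for exon skipping and for intron retention. With at least 2 isoforms on either side, exon skipping was 28.8% in DCRT-KO and 29.03% in WT.

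**Figure D2:**
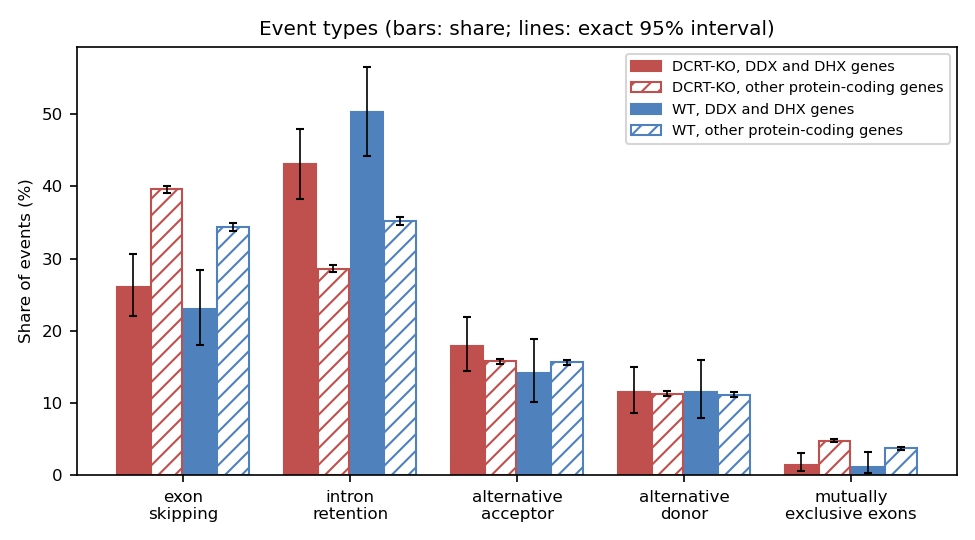
Share of each event type (y axis, percent of the events of that gene group and library; x axis, event type) for the DDX and DHX genes (filled bars) and the other protein-coding genes (hatched bars), with exact 95% intervals that cover counting error only. Intron retention reaches 43.1% in DCRT-KO and 50.4% in WT for the helicases, above the hatched bars at 28.6% and 35.2%.

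The higher share of intron retention was also seen per intron. The reference transcripts of the 44 members hold 748 introns, of which 73 were retained in an event of DCRT-KO, 9.76% (7.73 to 12.1), and 58 in WT, 7.75% (5.94 to 9.91). In the other genes the shares were 4.66% and 4.82% of 86959 introns. Without DDX5 the members' shares were 8.70% and 6.79%. Internal exons of the same transcripts were skipped in 71 of 704 cases in DCRT-KO, 10.1%, and in 33 in WT, 4.69%, against 10.2% and 6.88% in the other genes. Skipping of reference exons in DCRT-KO was thus about as frequent per exon as in the other genes. In WT it was less frequent, with an interval of 3.25 to 6.52 against 6.70 to 7.06. The groups were not matched on their number of isoforms, and its part in these shares was not tested.

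Retained introns of the members were annotated introns in 60.1% of cases in DCRT-KO (interval 52.6 to 67.3) and in 61.8% of those in WT (53.0 to 70.0), against 47.7% and 46.5% in the other genes. They recurred between the libraries as well. The identical intron retention was in the other list for 35.0% of the retentions in DCRT-KO (interval 28.1 to 42.4) and 46.3% of those in WT (37.7 to 55.1), against 23.0% and 22.1%. DDX5 carried much of this, and without it the shares were 27.0% (20.1 to 34.8) and 35.8% (26.8 to 45.7). The distinct retained segments numbered 236. Of these, 116 were annotated introns with a median length of 292 bases, and 45 of the 116 were retained in both libraries, in 13 genes. Of the 120 segments that are no annotated intron, 4 were in both libraries.

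Segments outside the annotation differed from introns in their end bases. Among them 105 lay inside an annotated exon, and 14 of these began with GT and ended with AG, while another 14 began with GC and ended with AG. The annotated introns that lay inside an exon of another transcript began with GT and ended with AG in 57 of 57 cases. The counts of DDX and DHX intron retention therefore include many segments without the usual intron ends.

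DDX5 retained the largest part of its introns of the 44 members, in either library. Of 12 introns in its reference transcript, 9 were retained in DCRT-KO and 8 in WT, the 8 being retained in both. Intron retention made up 31 of 56 DCRT-KO events and 30 of 41 WT events. Intron 12 was retained by 9 isoforms and removed by 3 in DCRT-KO, and by 2 and 6 in WT. In the same order, intron 9 had 6 and 23, and 2 and 20, and intron 8 had 3 and 3, and 2 and 20. Intron 7 had 4 and 25, and 2 and 22, and intron 6 had 6 and 26, and 3 and 2. Retaining isoforms of these introns were more numerous in DCRT-KO, but at intron 6 they outnumbered the removing isoforms in WT alone. Intron 10 had more retaining isoforms in WT, with 1 retaining and 2 removing in DCRT-KO, and 5 and 6 in WT. So did intron 11, described below. Isoforms retained the introns downstream of intron 5 more often than those before it, where intron 4 was retained by 1 isoform in each library and intron 3 by 1 in DCRT-KO.

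**Figure D3:**
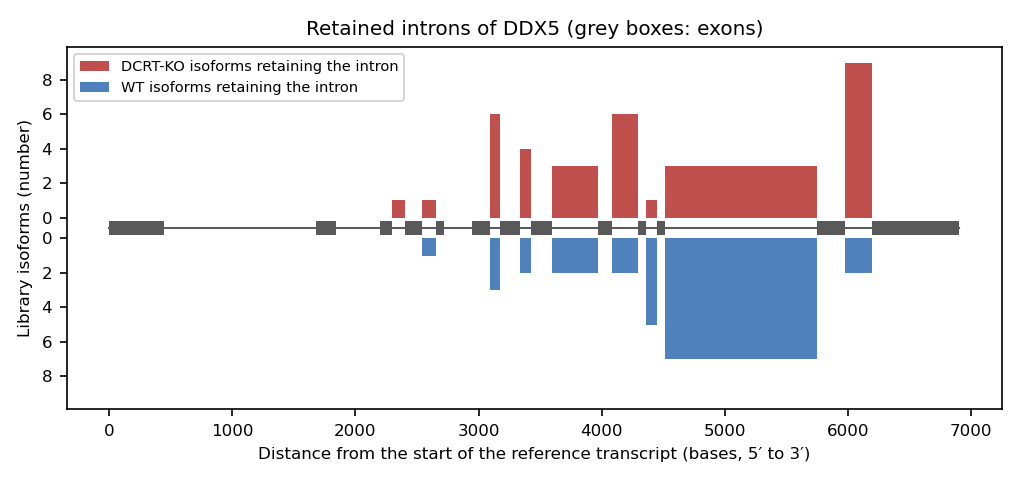
Isoforms retaining each intron of the DDX5 reference transcript (y axis, number of library isoforms, DCRT-KO upwards and WT downwards) against distance from the transcript's start (x axis, bases); grey boxes are exons. Intron 12, the last, is highest in DCRT-KO with 9 isoforms and intron 11, the widest retained one, is highest in WT with 7.

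Intron 11 of DDX5, of 1236 bases, also contains the 87-base cassette printed above. It was retained by 3 isoforms and removed by 9 in DCRT-KO, and retained by 7 and removed by 7 in WT. Its first and last 30 bases are shown, with the GT and AG of the splice sites in capitals.
DDX5 intron 11, first bases, chr17:64501980-64502009, minus strand: GTtagtacaaactcgcattcatggcttggt
DDX5 intron 11, last bases, chr17:64500774-64500803, minus strand: gctattttgccacactgcaacaccttacAG
The 87-base cassette itself was skipped by 10 isoforms in DCRT-KO and 8 in WT, and its inclusion rested on an annotated transcript, with 0 isoforms of either library.

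DDX39A retained the same introns in both libraries, 5 of its 10. Intron 8, of 88 bases, was retained by 2 isoforms and removed by 26 in DCRT-KO, and retained by 2 and removed by 9 in WT. Intron 6, of 342 bases, was retained by 6 and removed by 13 in DCRT-KO, and by 3 and 3 in WT. Retaining isoforms were thus fewer than or equal to removing isoforms at both introns. The short intron 8 is printed whole, with its GT and AG in capitals, together with the ends of intron 6.
DDX39A intron 8, chr19:14409448-14409535, minus strand: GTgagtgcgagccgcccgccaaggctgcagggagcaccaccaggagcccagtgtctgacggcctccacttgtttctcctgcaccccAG
DDX39A intron 6, first bases, chr19:14410186-14410215, minus strand: GTgagtagggcgagagtggcagctttggcc
DDX39A intron 6, last bases, chr19:14409874-14409903, minus strand: cccgcccctcccacctcccttcccacacAG

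In total 8 introns had at least 2 isoforms on each form within a single table row in both libraries, and 7 of them are described. With isoforms pooled over the rows of an intron, as in the numbers given here, 14 reached that support. The further 6 were introns 6, 7, 8, 9 and 12 of DDX5 and intron 8 of DDX56. Besides intron 11 of DDX5 and those of DDX39A, the described introns were intron 6 of DDX39B, intron 6 of DDX56, intron 18 of DHX30 and intron 8 of DDX11. The DDX39B intron, 2455 bases long, was retained by 5 isoforms and removed by 17 in DCRT-KO, and by 4 and 10 in WT. The DDX56 intron, of 614 bases, was retained by 2 and removed by 14, and by 2 and 6. The DHX30 intron, of 112 bases, was retained by 7 and removed by 26, and by 2 and 6. The DDX11 intron, of 395 bases, was retained by 4 and removed by 3, and by 3 and 4, so that retaining and removing isoforms were near even. DDX20 retained 5 of 10 introns in each library, 4 of them in both, while DHX30 retained 7 of 21 in DCRT-KO and 1 in WT.

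**Figure D4:**
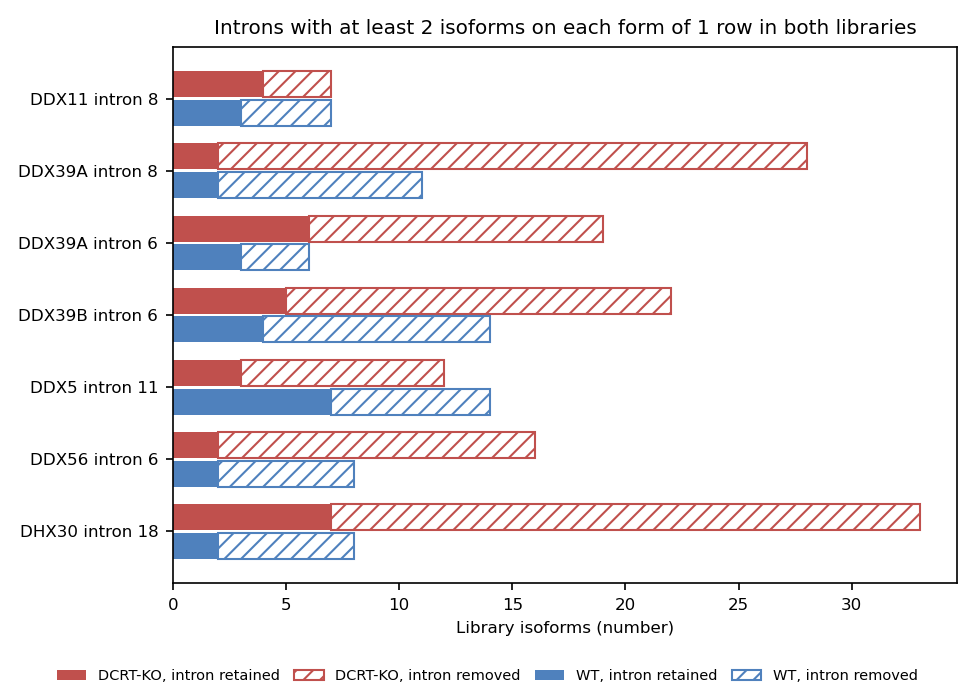
Library isoforms that retain (filled) or remove (hatched) each of 7 introns supported by at least 2 isoforms on each form of a single table row in both libraries (x axis, number of isoforms pooled over rows; y axis, gene and intron). Retaining isoforms range from 2 to 7 in each library, and removing isoforms are most numerous at DHX30 intron 18 and DDX39A intron 8 of DCRT-KO, with 26 each.

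Skipped exons of the members kept the reading frame in about as many cases as they broke it. Of 141 distinct skipped segments, 106 were annotated exons, and 55 of these (51.9%, 42.0 to 61.7) had a length divisible by 3, against 43.0% (42.2 to 43.8) in the other genes. Of the 141, 83 were coding exons of the reference transcript and 15 were cassettes between its coding exons. Of the same 141, 29 were listed as skipped in both libraries, and 4 had at least 2 isoforms on each form in both, the cassettes of DDX27, DHX9 and DDX50 and exon 3 of DDX39B. Skipping of a reference exon mostly rested on a single isoform, in 54 of 71 exons in DCRT-KO and 24 of 33 in WT. It rested on 2 or more in 12 and 4 exons, and on annotated transcripts with 0 library isoforms in 5 and 5.

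Cassettes were carried by a minority of isoforms in most cases. A stop codon in frame lies in 13 of the 15, among them 7 of the 8 listed in both libraries. That share was not computed for cassettes of other genes, so the count has no background. Some cassettes are also not separate. Those of 185 and 58 bases in DDX39A have the same stop, and those of 112 and 54 bases in DDX50 overlap. The DHX9 cassette of 137 bases, whose stop ends at base 43, was included by 2 isoforms and skipped by 13 in DCRT-KO, and by 2 and 18 in WT. The DDX39A cassette of 185 bases, with its stop at base 14, was included by 2 and skipped by 20, and by 1 and 10. The DDX50 cassette of 112 bases, with its stop at base 69, was included by 3 and skipped by 4, and by 4 and 5. The DDX50 exon was thus present in a larger part of its isoforms than the other 2, in both libraries.

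The DDX19A cassette of 61 bases was included by 1 isoform and skipped by 4 in DCRT-KO, and by 2 and 7 in WT. The DHX34 cassette of 75 bases was included by 2 and skipped by 4 in DCRT-KO, and in WT by 1 isoform, with 0 skipping it. DHX34 is itself a factor of nonsense-mediated decay. A DHX30 cassette of 29 bases, whose stop ends at base 5, was included by 1 and skipped by 2 in DCRT-KO, and skipped by 3 and included by 0 in WT. The frame-keeping DDX27 cassette was included by 3 isoforms in each library and skipped by 18 in DCRT-KO and 21 in WT, so the libraries were alike in these counts.

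**Figure D5:**
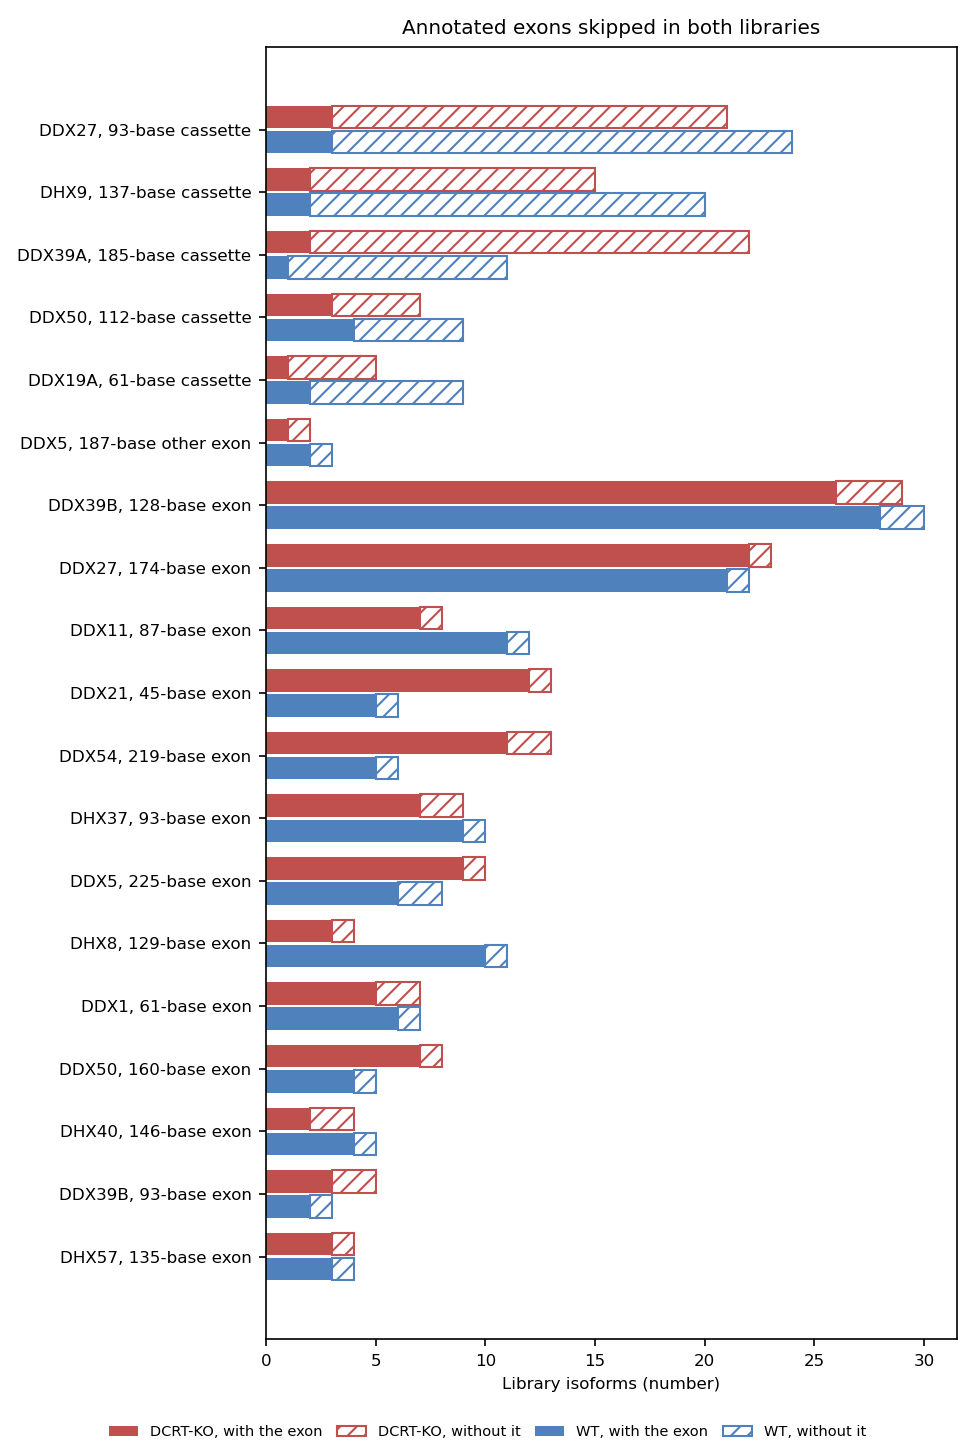
Library isoforms with (filled) and without (hatched) each of 19 annotated exons skipped in both libraries and named on both forms (x axis, number of isoforms named in the event; y axis, gene and exon length). The cassettes are mostly absent, as in DDX27 with 3 isoforms with the exon in each library, and the reference coding exons mostly present, as in DDX39B with 26 and 28 isoforms with its 128-base exon.

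Coding exons of the reference transcript that were listed as skipped in both libraries numbered 18. Library isoforms left out 13 of them in both, and no annotated transcript skips 12 of the 18. In the other 5, those of DDX19A, DDX47, DDX56, DHX33 and DHX36, the skip rested on an annotated transcript in at least 1 library. Exon 3 of DDX39B, which holds the P-loop and whose 128 bases shift the frame, was included by 26 isoforms and skipped by 3 in DCRT-KO, and by 28 and 2 in WT. Exon 8 of DDX27, of 174 bases, also holds the P-loop and was included by 22 and skipped by 1, and by 21 and 1. Exons with the P-loop codons were listed as skipped in 10 of the 37 members in which the P-loop and the box were both found. The remaining members were not assessed for either. Library isoforms left P-loop exons out in 9, the others of which were DDX19A, DDX49, DDX54, DDX55, DHX33, DHX34 and DHX40. In DHX35 only an annotated transcript lacks the exon. Exons that code for the Asp-Glu box were skipped in 3 of the same 37 members, each in 1 library and by 1 isoform. In WT this was exon 9 of DDX27, included by 16 isoforms. In DCRT-KO it was exon 8 of DHX37, whose 114 bases keep the frame and which 8 isoforms included, and exon 9 of DHX57, which 2 isoforms included. Of all 704 internal exons of the 44 members' reference transcripts, 10.1% were listed as skipped in DCRT-KO and 4.69% in WT. Whether exons of the ATPase site differ from other exons in this was not tested.

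Other reference exons skipped in both libraries lay in various parts of the gene, and 3 from the last part are described. Early ones included exon 4 of 26 in DDX11 and exon 3 of 18 in DHX40. Exon 12 of DDX5, of 225 bases and next to intron 11, was included by 9 isoforms and skipped by 1 in DCRT-KO, and by 6 and 2 in WT. Exon 14 of 15 in DDX21, of 45 bases, was included by 12 and skipped by 1, and by 5 and 1. Exon 15 of 20 in DDX54, of 219 bases, was included by 11 and skipped by 2, and by 5 and 1. These 3 exons keep the frame, and each was present in more isoforms than it was absent from. Others of the set shift it, such as exon 12 of 15 in DDX50, of 160 bases.

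Alternative splice sites of the members rarely had both sites in use by several isoforms. There were 94 distinct acceptor pairs with a median distance of 65 bases and 67 donor pairs with a median of 96, and 14 and 12 of them were in both libraries. At least 2 isoforms on each site within a table row were found in both libraries for 3 pairs, and for 4 with rows pooled. In DDX39B, acceptors 130 bases apart outside the coding part were used by 12 and 10 isoforms in DCRT-KO and 12 and 13 in WT. Also in DDX39B, acceptors 19 bases apart were used by 22 and 3, and by 18 and 4. In DHX38, donors 13 bases apart were used by 2 and 7, and by 3 and 6. The DHX30 pair that pooling adds had 32 and 2 isoforms in DCRT-KO, and 2 and 2 in WT. The preferred site was the same in both libraries for the pairs 19 and 13 bases apart, and the pair 130 bases apart was near even in both.

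Sites 3 bases apart, which add or drop a codon, were found in 4 pairs of DDX3X, DDX46 and DDX54, each in both libraries. The printed bases run 30 bases from or up to the site, and the capitals are the 3 bases that the longer form alone contains.
DDX3X first acceptor pair, chrX:41339036-41339065, plus strand: AAGggcgctatattcctcctcatttaagga
DDX3X second acceptor pair, chrX:41347312-41347341, plus strand: TAGcagatttagtggagggtttggtgccag
DDX46 donor pair, chr5:134816577-134816606, plus strand: cagaagaatttgggcatcgagtctcagGTA
DDX54 acceptor pair, chr12:113159083-113159112, minus strand: CAGgtgcatcccggccccacgccccaggca
The first DDX3X pair had 6 isoforms with the codon and 0 without it in DCRT-KO, and 5 and 1 in WT, and the second had 4 and 1, and 7 and 0. In DDX54 the codon was kept by 3 isoforms and dropped by 1 in DCRT-KO, and by 1 and 2 in WT. In DDX46, the homologue of yeast Prp5, the shorter form had 1 isoform and the longer 1 in DCRT-KO, and 3 and 4 in WT.

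Most of the members' events were listed in 1 library, as were most of the other genes' events. An identical event was in the other list for 28.9% of those in DCRT-KO (interval 24.7 to 33.5) and 44.1% of those in WT (38.1 to 50.2), against 30.7% and 35.6% in the other genes. Without DDX5 the shares were 24.4% and 37.1%. The 547 distinct events included 104 in both libraries, in 28 genes, a share not computed for the other genes. At least 2 library isoforms stood on each form in 66 of 425 DCRT-KO events (15.5%) and 31 of 270 WT events (11.5%), with 13.0% and 11.4% in the other genes.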

How the data were processed

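Each of the 2 libraries, 1 of DCRT-KO and 1 of WT AC16 cells, gave 5 event tables, grouped by genotype label. Trizol was the extraction reagent, per the labels' protocols. The design text describes PacBio long reads and the labels' protocols strand-specific Illumina libraries, a conflict that was not settled. The submitters' processing notes name minimap2 and hg38. No source used here gives the isoform builder, the event caller, the annotation release or the filters. A deposited row, per the file headers, holds a chromosome, the isoforms of each form, a gene identifier and splice positions. The values are other than counts or scores.

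Each row was counted as 1 event, including 27 DCRT-KO and 17 WT repeated rows of members. A member's events were formed without any library isoform in 1 DCRT-KO and 7 WT cases. Genes on chromosome Y were left out, and 1 retained intron is not reported here. GENCODE v29, which shares the assembly, supplied exons and introns. The APPRIS principal transcript with the longest coding part served as reference, and the P-loop (Gly-Lys-Thr or Gly-Lys-Ser) and Asp-Glu box (at most 150 residues further on) were found in its translation in 37 members. Positions are 1-based. Shares have exact (Clopper-Pearson) and ratios exact conditional 95% intervals. No test was possible and no p-value was computed. Numbers of events under 3 were set to 3 in folds.

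The members, role lists and rules were chosen with earlier results of these data known. Values are given in full for the 10 members with most events, the 4 with the largest difference in each direction, and members whose skipped exon had at least 2 isoforms on each form in both libraries. Other genes were named for single events described or to account for each member. Alternatives changed the support required, the events counted, the fold and the definition of a shared event. The code was tested on simulated data. Python 3.11.15, pandas 2.3.3, scipy 1.17.1 and matplotlib 3.10.9 were used.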

Additional observations from a re-analysis of the deposited data

How the results depend on the processing

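Of 61 values of the main results under alternatives, 42 moved by less than their counting interval or 1.5-fold and 19 moved, while the ratio of events stayed above 1. Where each form needed 2 or more library isoforms, the ratio of events was 2.13 (1.37 to 3.38). The ratio of the other protein-coding genes also rose, with 5396 such events in DCRT-KO and 3906 in WT. Of the 25 members left, 14 held more events in DCRT-KO, a share not computed for all genes under that filter. Past 2-fold were 2 in DCRT-KO (8%, against 5.17% of such genes) and 0 in WT. Exon skipping then made up 29.03% of WT and intron retention 37.9% of DCRT-KO events, and 22.7% of DCRT-KO events were shared. With genes in both lists, 0 members were past 2-fold in WT. Without retention of unannotated introns, exon skipping was 31.5% in DCRT-KO and intron retention 31.25% in DCRT-KO and 38.5% in WT. Scaled to the length of each list, 7 members were past 2-fold in DCRT-KO (15.9%, against 9.25% of all genes). At 1.5-fold 2 were past it in WT, and at 3-fold 5 in DCRT-KO and 0 in WT. The shares of all genes at these 2 folds were not computed, so the counts have no background. Counting any overlap, 42.1% of DCRT-KO and 60.7% of WT events were shared, a share not computed for the other genes. Without DDX5, an alternative chosen after seeing the data, 24.4% and 37.1% were. The cause of these shifts was not tested beyond the fewer events or genes that each keeps. Of 66 differences of named members under alternatives, 63 stayed within the counting interval of the member's split between libraries and 3 moved. The sign, DCRT-KO minus WT, turned in 3, none of them of a member past 2-fold. With 2 or more isoforms on each form DDX47 went from -3 to 2, and without retention of unannotated introns DDX27 went from -2 to 2 and DDX39B from 2 to -1.

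No paired analysis was possible because each genotype has 1 library and no replicate. Leaving out a replicate was likewise not possible. Depth is unknown, and the number of isoforms limits the precision of every value.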
